A study of Mus musculus with 36 samples.

Results

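The genes described here are Insig1, Insig2 and Srebf1, which encode the sterol-sensing retention proteins of the endoplasmic reticulum and a transcription factor that they hold there. They were taken by symbol from the deposited gene counts and are 3 of 24421 genes counted in each of 36 livers. They were selected on their measured differences between the 4 treatment groups in these same livers, so their levels and fold changes below are a description and carry no test. The mice were male C57BL/6J, 7 weeks old at purchase, without a genetic change, and all 36 were first kept for 12 weeks on the CDAHFD, which is rich in fat, lacks choline, supplies protein as amino acids and causes steatohepatitis. In the HFD experiment the diet was then changed to a high-fat diet for 2 weeks, with subcutaneous Fc at 4.3 mg/kg (10 mice) or Fc(mML1)B3 at 5 mg/kg (10 mice) once a week. In the standard diet experiment the mice received a standard diet for 10 days, with Fc at 4.3 mg/kg (9 mice) or Fc(mML1)B3 at 5 mg/kg (7 mice) on days 1, 4 and 7. Fc(mML1)B3 is an antibody Fc fragment carrying a peptide that binds and activates Met, the receptor of hepatocyte growth factor, and Fc is the fragment without that peptide. Diet went together with experiment, length of treatment and number of injections, which cannot be told apart, and no mouse without a protein injection was analysed here.

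Insig1 and Insig2 bind SCAP, the escort of the SREBP precursors, when sterols are plentiful, and thereby keep the precursors in the endoplasmic reticulum. When sterols fall, SCAP carries the precursors to the Golgi, where the site-1 and site-2 proteases (Mbtps1 and Mbtps2) release the active factors. Srebf1 encodes SREBP-1a and SREBP-1c, of which SREBP-1c drives fatty acid synthesis in liver, and Srebf2 encodes SREBP-2, the main activator of cholesterol synthesis. Insig1 is itself an SREBP target, whereas Insig2 has a liver transcript that insulin is known to lower. Srebf1 transcription in liver is raised by insulin, by LXRα (Nr1h3) and by its own product.

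On mm10, Insig1 lay on chr5:28071412-28078662 of the plus strand with 5 exons and 2648 exonic bases, Insig2 on chr1:121304353-121332589 of the minus strand with 9 exons and 2953 exonic bases, and Srebf1 on chr11:60199089-60220604 of the minus strand with 19 exons and 4299 exonic bases. Each was read deeply in every library, with 3649 to 18515 reads for Insig1, 918 to 9898 for Insig2 and 3530 to 17831 for Srebf1. Strand was not used in the counting, and the last 107 exonic bases of Srebf1 (2.49% of its exons) overlap Rai1 on the plus strand, so reads there could not be given to either gene. The counts summed all transcripts of a gene. Those of Insig2 covered 3 transcription starts, while the deposited exons of Srebf1 held a single first exon, so SREBP-1a and SREBP-1c could not be separated.

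The promoters of the 3 genes are shown because both Insig genes and Srebf1 are known to be under transcriptional control in liver. They were read from RefSeq on GRCm38.p6, which is mm10, and all 3 symbols matched, with 1 start for Insig1 and 3 each for Insig2 and Srebf1. The lines give the 250 bases before a start on the gene's own strand, for Insig1 (chr5:28071162-28071411, plus strand), the furthest upstream Insig2 start (chr1:121332590-121332839, minus strand), the next Insig2 start (chr1:121328025-121328274, minus strand), the Srebf1 start 23 bases before the first deposited exon (chr11:60220628-60220877, minus strand) and a Srebf1 start further downstream in the gene (chr11:60210472-60210721, minus strand). Capitals mark matches on either strand to 4 motifs, TCACNCCAC (an SREBP element), CACGTG (an E-box), AGGTCA (a nuclear receptor element) and CCAAT (the NF-Y box).
Insig1: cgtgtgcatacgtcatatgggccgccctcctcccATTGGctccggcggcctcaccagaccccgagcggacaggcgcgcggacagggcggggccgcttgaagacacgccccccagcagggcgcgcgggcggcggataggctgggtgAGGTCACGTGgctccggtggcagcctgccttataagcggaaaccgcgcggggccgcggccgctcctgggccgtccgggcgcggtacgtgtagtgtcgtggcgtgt
Insig2, upstream start: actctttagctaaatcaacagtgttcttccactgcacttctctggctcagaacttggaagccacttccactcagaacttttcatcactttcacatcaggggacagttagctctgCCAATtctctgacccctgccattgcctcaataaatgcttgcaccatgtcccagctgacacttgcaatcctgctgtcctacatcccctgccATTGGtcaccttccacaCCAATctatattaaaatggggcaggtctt
Insig2, next start: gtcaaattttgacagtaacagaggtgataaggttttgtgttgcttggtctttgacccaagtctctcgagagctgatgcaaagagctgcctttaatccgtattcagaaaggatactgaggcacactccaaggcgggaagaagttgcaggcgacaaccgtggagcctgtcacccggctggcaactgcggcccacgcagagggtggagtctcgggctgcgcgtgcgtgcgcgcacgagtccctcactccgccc
Srebf1, start by the first deposited exon: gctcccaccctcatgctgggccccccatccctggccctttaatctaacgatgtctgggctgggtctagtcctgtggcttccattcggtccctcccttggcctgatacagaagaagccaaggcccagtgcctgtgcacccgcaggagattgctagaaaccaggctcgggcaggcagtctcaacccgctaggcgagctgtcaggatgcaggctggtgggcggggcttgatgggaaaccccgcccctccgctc
Srebf1, downstream start: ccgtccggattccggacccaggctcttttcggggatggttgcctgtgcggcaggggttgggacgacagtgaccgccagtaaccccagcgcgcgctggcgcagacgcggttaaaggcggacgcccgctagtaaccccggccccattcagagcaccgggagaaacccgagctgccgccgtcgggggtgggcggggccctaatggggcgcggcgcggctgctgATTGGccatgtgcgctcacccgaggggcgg

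Of 32851 promoter windows of this length in the table, 1.05% held TCACNCCAC, 6.02% CACGTG, 14% AGGTCA and 33.8% CCAAT. The Insig1 window held a CCAAT box 216 bases before the start on the opposite strand, a nuclear receptor element 105 bases before it and an E-box 101 bases before it, the last 2 sharing 2 bases. The upstream Insig2 window held 3 CCAAT boxes, 136, 46 and 29 bases before the start, the middle one on the opposite strand, and the next Insig2 window held none of the 4 motifs. The Srebf1 window beside the first deposited exon also held none, and the downstream Srebf1 window held 1 CCAAT box. None of these 5 windows held TCACNCCAC, which says only that these letters were not within them. The GC content ranged from 47.2% in the upstream Insig2 window to 72.8% in the Insig1 window.

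Total counts ranged from 14949035 to 28466853 per library with a median of 23558194.5, and no pair of mice of 1 group was a duplicate (chi-square per degree of freedom of at least 6.30 over 147 pairs). Levels below are in CPM, a gene's counts scaled to the same total in every library, with the totals adjusted by TMM. The running numbers in the library names restart between the first 4 and the other 6 Fc(mML1)B3 mice of the HFD experiment, which are called series b and series c, and all Fc libraries of that experiment have a series of their own, so that series and protein cannot be told apart there. In the standard diet experiment, 5 Fc libraries have low running numbers, and 4 Fc and all 7 Fc(mML1)B3 libraries have numbers above 100. The tissue was whole liver, and the 6 hepatocyte markers checked (Alb, Ttr, Apoa1, Serpina1a, Hnf4a and Cps1) summed to between 70134 and 143658 CPM.

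Insig2 was the member whose level differed most between the groups, and its differences had opposite directions in the 2 diets. Under the HFD it was at 57.4 CPM in the lowest, 71.8 in the median and 136 in the highest Fc mouse, and at 115, 193 and 355 CPM in the Fc(mML1)B3 mice. All 10 Fc(mML1)B3 mice lay above the median of the Fc mice and 8 lay above every Fc mouse, and the ranges overlapped only through Fc mouse 10 at 136 CPM. The means were 79.7 ± 25.7 CPM (SD, n = 10) with Fc and 211 ± 86.5 CPM (SD, n = 10) with Fc(mML1)B3, for a log2 fold change of 1.42 (standard error 0.21), or 2.67-fold. In this comparison 14.8% of the 13299 genes tested were called in either direction at an adjusted p below 0.05. In the 4 mice of series b, Insig2 ranged from 115 to 167 CPM, and in the 6 of series c from 138 to 355 CPM. Against all Fc mice, the log2 fold change was 0.82 (standard error 0.19) with series b alone and 1.71 (standard error 0.20) with series c alone. Both series were thus higher than Fc, series c by more.

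In the standard diet experiment, Insig2 was lower with Fc(mML1)B3. It was at 130 CPM in the lowest, 177 in the median and 201 in the highest Fc mouse, and at 74.3, 77.8 and 84.4 CPM in the Fc(mML1)B3 mice. The ranges did not overlap, all 7 Fc(mML1)B3 mice lying below every Fc mouse. Of the 13570 genes tested in this comparison, 16.1% were called in either direction. The means were 167 ± 27.3 CPM (SD, n = 9) and 78.9 ± 3.86 CPM (SD, n = 7), with a log2 difference of -1.09 (standard error 0.09). With the libraries numbered above 100 alone, 4 Fc and 7 Fc(mML1)B3 mice, it was -0.99 (standard error 0.08). The Fc(mML1)B3 mice of this diet also had the smallest SD of the 4 groups.

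**Figure D1:**
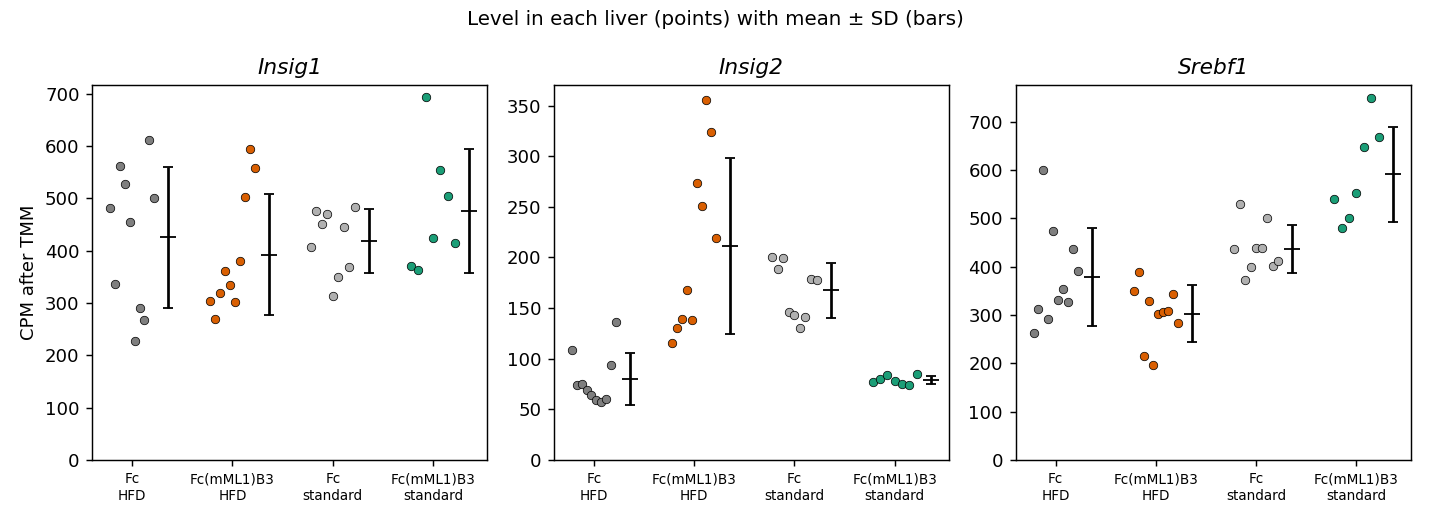
CPM of Insig1, Insig2 and Srebf1 in each of the 36 livers, with the axis of each panel starting at 0, points for mice in the 4 groups and bars for the mean ± SD. Insig2 was higher with Fc(mML1)B3 under the HFD (211 against 79.7 CPM) and lower with it under the standard diet (78.9 against 167 CPM), whereas the Insig1 groups overlapped throughout.

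In order of the group means, Insig2 was at 78.9 CPM with Fc(mML1)B3 under the standard diet, 79.7 with Fc under the HFD, 167 with Fc under the standard diet and 211 with Fc(mML1)B3 under the HFD. The first 2 of these means differed by 0.877 CPM and the last 2 by 44.0 CPM, in each case less than the larger SD of the pair, while the step of 87.6 CPM between the middle 2 exceeded it. The groups thus formed a low pair and a high pair, each holding 1 group of either protein and either diet. The 2 Fc groups themselves differed, with a log2 difference of 1.07 (standard error 0.18) of standard diet over HFD, and 8 of 9 standard diet Fc mice lay above every HFD Fc mouse (47.9% of the 14105 genes tested in all 36 libraries were called in this comparison, 23.3% higher and 24.6% lower). The effect of Fc(mML1)B3 was lower by 2.49 on the log2 scale (standard error 0.26) under the standard diet than under the HFD, a difference called for 9.06% of all genes. This difference, the diet comparison and the comparisons of the proteins share the Fc mice, so they are not separate pieces of evidence.

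Insig1, the partner of Insig2 that is itself an SREBP target, had group means within 1 SD of their neighbours in all 4 groups. Under the HFD it was at 227, 468 and 611 CPM in the lowest, median and highest Fc mouse, and at 269, 347 and 595 CPM with Fc(mML1)B3. Every Fc(mML1)B3 mouse lay within the range of the Fc mice, and 7 of 10 lay below their median. The means were 426 ± 135.1 and 393 ± 116 CPM (SD, n = 10 each), and the log2 fold change was -0.10 (standard error 0.18). It was -0.41 (standard error 0.22) with series b alone and 0.07 (standard error 0.21) with series c alone, so the sign depended on the series. Among the HFD Fc mice, log2 Insig1 was also higher in the libraries with more reads (Pearson r of 0.71 with the log2 total over 10 mice), which it was not in the other groups (r of -0.33, -0.29 and -0.02); the part of depth in these levels was not tested.

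In the standard diet mice, Insig1 was at 314, 445 and 484 CPM in the lowest, median and highest Fc mouse, and at 364, 424 and 694 CPM with Fc(mML1)B3. The ranges overlapped, with 3 of 7 Fc(mML1)B3 mice above every Fc mouse and 4 below the Fc median. The means were 419 ± 61.8 CPM (SD, n = 9) and 475 ± 119 CPM (SD, n = 7), with a log2 fold change of 0.18 (standard error 0.12). No step between neighbouring group means of Insig1 exceeded the larger SD of the pair, the widest being 49.3 CPM. The effects in the 2 diets differed by 0.30 on the log2 scale (standard error 0.24), and the 2 Fc groups by -0.02 (standard error 0.17).

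Since the 2 Insig proteins share the retention function, their transcripts were also put on 1 scale, CPM per kb of exons. On this scale Insig1 was the more abundant in every group, with means from 148 to 179 CPM per kb against 26.7 to 71.6 CPM per kb for Insig2. Insig2 made up 14.8 ± 3.45% (SD, n = 10) of the sum of both with Fc under the HFD and 32 ± 6.39% (SD, n = 10) with Fc(mML1)B3. In the standard diet mice it made up 26.5 ± 3.33% (SD, n = 9) with Fc and 13.4 ± 2.64% (SD, n = 7) with Fc(mML1)B3. The share did not overlap between the proteins in either diet, with a highest value of 19.6% against a lowest of 25.4% under the HFD and 16.4% against 21.8% under the standard diet. It is built from Insig2, which was chosen for its differences between the groups, so this separation is no further evidence. How many other genes or pairs of genes separate in this way was not computed. The sum of both transcripts was less different, at 188 ± 56.2, 220 ± 67.7, 215 ± 28.3 and 206 ± 45.0 CPM per kb in the same order of groups, steps smaller than their SDs.

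**Figure D2:**
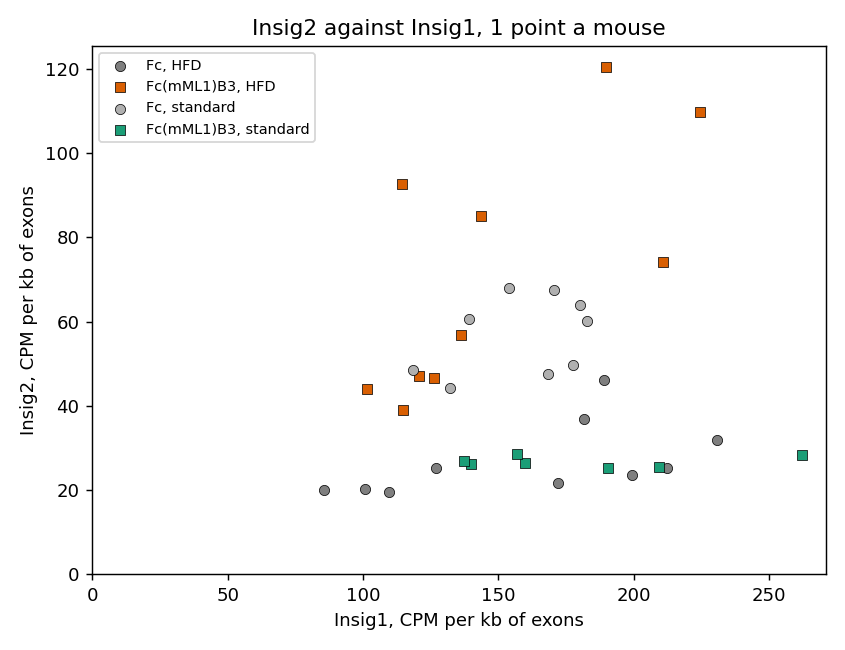
Insig2 against Insig1 in each mouse, both in CPM per kb of exons with axes from 0, by group. The HFD Fc mice and the standard diet Fc(mML1)B3 mice lie between 19.4 and 46.1 CPM per kb of Insig2, and the other 2 groups between 39.1 and 120 CPM per kb.

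Srebf1, the lipogenic factor that the Insig proteins retain, had smaller differences than Insig2, in the other direction in each diet. Under the HFD it was at 262, 342 and 600 CPM in the lowest, median and highest Fc mouse and at 196, 306 and 390 CPM with Fc(mML1)B3. The ranges overlapped, with 7 of 10 Fc(mML1)B3 mice below the Fc median and 2 below every Fc mouse. The means were 378 ± 101 and 302 ± 59.1 CPM (SD, n = 10 each), with a log2 difference of -0.31 (standard error 0.14). With series b alone it was -0.21 (standard error 0.20) and with series c alone -0.38 (standard error 0.17).

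On the standard diet, Srebf1 was at 371, 436 and 530 CPM in the lowest, median and highest Fc mouse and at 479, 553 and 749 CPM with Fc(mML1)B3. All 7 Fc(mML1)B3 mice lay above the Fc median and 5 lay above every Fc mouse, so that the ranges overlapped by the 2 lowest. The means were 437 ± 50.5 CPM (SD, n = 9) and 591 ± 98.8 CPM (SD, n = 7), with a log2 difference of 0.43 (standard error 0.09), or 1.35-fold. It was 0.43 (standard error 0.12) with the libraries numbered above 100. The effects in the 2 diets differed by 0.76 on the log2 scale (standard error 0.18), and the Fc groups by 0.21 (standard error 0.12). In order, Srebf1 was at 302 CPM with Fc(mML1)B3 and 378 CPM with Fc under the HFD, and at 437 CPM with Fc and 591 CPM with Fc(mML1)B3 under the standard diet, of which only the last step, 155 CPM, exceeded the larger SD of its pair. Between the 2 Fc(mML1)B3 groups, neither Srebf1 nor Insig2 overlapped, Srebf1 being higher and Insig2 lower in all 7 standard diet mice. These 2 groups were not compared over all genes, so no share of genes can be set beside this. Scap, Nr1d1 and Arntl did not overlap between them either, while Mbtps1, Mbtps2, Srebf2, Nr1h3 and Mlxipl did.

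Differences among mice of 1 group did not enter the choice of the genes, so the relations among the 3 were tested within groups (3 pairs in 4 groups, 12 relations, on log2 CPM, with 2-sided permutation tests, exact for 7 and 9 mice). No relation passed the correction. Between Insig1 and Insig2 under the HFD, Pearson r was 0.63 in the 10 Fc mice (permutation p = 0.0334, adjusted over the 12 relations 0.201, Spearman rho = 0.72 with permutation p = 0.0226 and adjusted p = 0.271). In the 10 Fc(mML1)B3 mice r was 0.71 (permutation p = 0.0305, adjusted p = 0.201, rho = 0.64 with permutation p = 0.0560 and adjusted p = 0.336). Without the 2 mice farthest from the median of Insig1, r was 0.48 and 0.72, and within the 6 mice of series c it was 0.46, while the 4 of series b were too few for a value. With the standard diet, r was 0.42 in the 9 Fc mice and 0.08 in the 7 Fc(mML1)B3 mice, with exact permutation p = 0.252 and 0.856, and without the 2 farthest mice it was -0.22 and -0.44. The lowest adjusted p for either coefficient was 0.201. Srebf1 had r between -0.39 and 0.40 with either Insig gene in the 4 groups (permutation p from 0.252 to 0.991); within the 6 mice of series c its r with Insig2 was 0.93, against 0.18 in all 10, and in the standard diet Fc(mML1)B3 mice it was -0.98 without the 2 farthest mice against -0.39 in all 7. In those mice the r of Srebf1 with Insig1 was 0.88 without the 2 farthest against 0.14 in all 7.

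The genes whose level followed each member most closely from mouse to mouse were found over the 36 libraries after each group's mean was removed, among 14104 other genes, and are listed by Pearson r as a description. For Insig1 they were Acsl3 (an acyl-CoA synthetase, r = 0.86), Mvd (mevalonate diphosphate decarboxylase of cholesterol synthesis, 0.84), Slc19a2 (a thiamine transporter, 0.81), Pxdc1 (0.79) and Dnajb2 (a co-chaperone, 0.77). The lowest r with Insig1 were those of Clec4a1 (-0.72), C2 (a complement component, -0.71) and Cdk9 (-0.70). For Insig2 they were Trim2 (a ubiquitin ligase, 0.84), Tjp3 (a tight junction protein, 0.82), Slc16a1 (a monocarboxylate transporter, 0.82), Lgalsl (0.81) and Cyp4f17 (0.81), and among the lowest were Trnau1ap (-0.82) and Clta (-0.81). These Insig2 values rested mostly on the other 3 groups, since in the Fc(mML1)B3 mice of the standard diet, where Insig2 hardly varied, the r of the 5 highest ranged from -0.25 to 0.44. For Srebf1 the highest were Agpat2 (an acyltransferase of triglyceride synthesis, 0.71), Psmc4 (a proteasome subunit, 0.71), Derl1 (0.70), Mlx (the dimerization partner of ChREBP, 0.70) and Esrra (0.70), and the lowest Igf1r (-0.75), Cd2ap (-0.72) and Rnf150 (-0.72). Values of r far from the overall one were also found in the standard diet Fc(mML1)B3 mice. They included Derl1 (-0.48) and Esrra (0.15) with Srebf1, Cdk9 (0.45) and Dnajb2 (0.33) with Insig1, and Trnau1ap (0.098) and Clta (-0.24) with Insig2. In the standard diet Fc mice they included Mvd (0.42) and Dnajb2 (0.29) with Insig1, Trnau1ap (-0.30) with Insig2, and Agpat2 (0.31) and Cd2ap (-0.25) with Srebf1. The points share library, depth and, in the HFD experiment, series.

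Srebf2, the other SREBP of the liver, Scap and the 2 proteases were not called between the proteins in either diet. Srebf2 had means of 52.5 ± 11.6 and 55.1 ± 11 CPM under the HFD in the Fc and in the Fc(mML1)B3 mice (SD, n = 10 each) and of 51.1 ± 5.54 (n = 9) and 46.4 ± 4.35 CPM (n = 7) under the standard diet. Its log2 fold changes were 0.08 (standard error 0.12) and -0.14 (standard error 0.07), neither called. On the per-kb scale it was at 10.1 to 12.1 CPM per kb on average, against 70.3 to 138 CPM per kb for Srebf1. Scap had log2 fold changes of -0.26 (standard error 0.09, adjusted p = 0.0633 in the quasi-likelihood fit of edgeR, Benjamini-Hochberg) under the HFD and -0.19 (standard error 0.07, adjusted p = 0.0608) under the standard diet. It was past the threshold under the HFD with upper-quartile normalization (adjusted p = 0.0251) and with library totals (0.00745), and under the standard diet with those 2 (0.0389 and 0.0143) and DESeq2 (0.0466). The proteases Mbtps1 (0.08 and -0.09) and Mbtps2 (-0.02 and -0.06) were not called in either diet. Between the Fc groups, Scap, Mbtps1 and Mbtps2 were higher under the standard diet by 0.42, 0.33 and 0.29 on the log2 scale (adjusted p = 9.88e-05, 7.75e-06 and 0.00595), of which Mbtps2 was not called with library totals (0.20, adjusted p = 0.111).

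**Figure D3:**
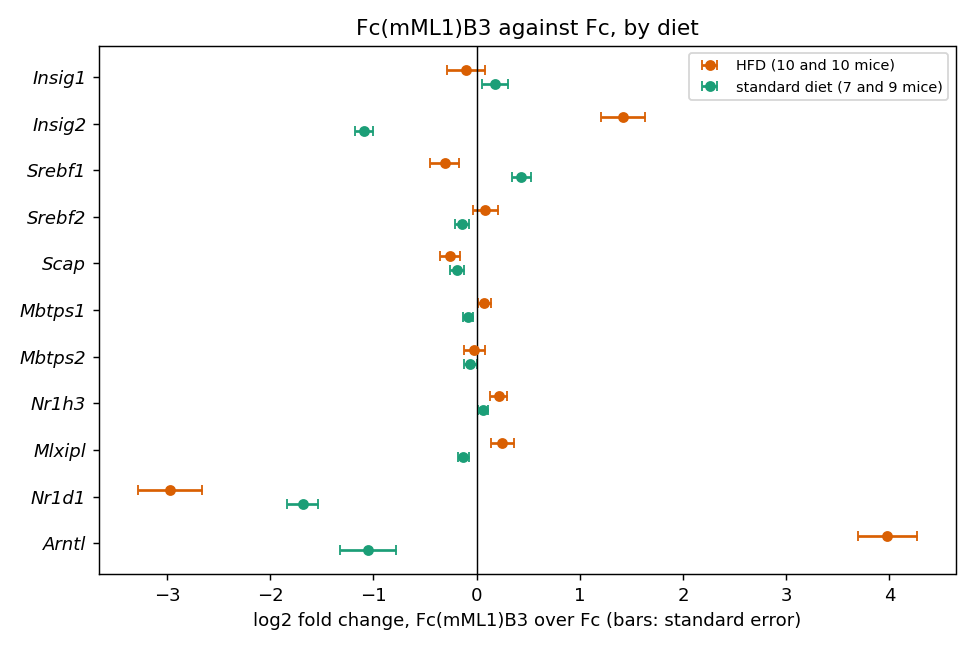
Log2 fold change of Fc(mML1)B3 over Fc with its standard error, for the 3 members, the SREBP machinery, 2 regulators of Srebf1 and 2 clock genes, under the HFD and the standard diet. Insig2 stands at 1.42 and -1.09 and Arntl at 3.98 and -1.05, while Srebf2, Scap, Mbtps1, Mbtps2, Nr1h3 and Mlxipl lie between -0.26 and 0.25.

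The list of 18 genes of SREBP escort, cleavage and sterol-regulated degradation held 2 genes that rose and 3 that fell under the HFD, and 3 that rose and none that fell under the standard diet (2 with an unadjusted p below 0.05 and a lower level, and 1 called lower by DESeq2), at an adjusted p below 0.05 and with no limit on the fold. Over all 13299 genes tested under the HFD, 8.14% were called higher and 6.68% lower, and over the 13570 under the standard diet 8.56% and 7.55%. By stricter limits from the study (adjusted p below 0.1 and 2-fold under the HFD, 0.05 and 1.5-fold under the standard diet, for which the study also names the HFD limits) these shares were 0.662% and 0.677% (1.34% in all) and 1.05% and 1.31% (2.36% in all), and no gene of the list passed. The median log2 fold change of the list was 0.09 and -0.03, against -0.01 over all genes in both. Between the Fc groups, 13 of the 18 were higher and none lower under the standard diet, with a median of 0.25 against -0.05 over all genes, of which 23.3% were higher and 24.6% lower. DESeq2 and limma-voom gave the same counts, upper-quartile scaling 9 and 2, and library totals 8 and 1, and by unadjusted p below 0.05 none was lower. Ube2g2, a ubiquitin-conjugating enzyme of degradation at the endoplasmic reticulum, rose from 25.5 ± 4.29 to 46.8 ± 5.21 CPM under the HFD (SD, n = 10 each), by 0.89 on the log2 scale (adjusted p = 5.38e-07). Rnf145, a ubiquitin ligase of the same pathway, fell by 0.48 under the HFD (adjusted p = 6.48e-04) and rose by 0.30 under the standard diet (adjusted p = 0.00694). The difference between the diets was called for both. The other genes called were Faf2 (0.21, adjusted p = 0.0143), Erlin2 (-0.22, adjusted p = 0.0383) and Usp20 (-0.35, adjusted p = 0.0458) under the HFD, and Aup1 (0.14, adjusted p = 0.0304) and Rnf139 (0.13, adjusted p = 0.0493) under the standard diet. Of these, Usp20 was not called with limma-voom (adjusted p = 0.0516), without the filter (0.0640) or with either series alone, Erlin2 without the filter (0.0575) or with either series alone, Faf2 with series b alone (0.0713) or library totals (0.228), Aup1 with library totals (0.0652) and Rnf139 without the filter (0.0632), with upper-quartile scaling (0.0788) or library totals (0.237). With a replicate block, none of Usp20, Erlin2, Faf2, Aup1 and Rnf139 was called (adjusted p from 0.0574 to 0.208). Without 1 mouse the counts were 2 to 6 higher and 1 to 4 lower under the HFD, with 6 higher without Fc(mML1)B3 mouse 5, and 1 to 4 higher under the standard diet, where the libraries numbered above 100 alone gave none. Upper-quartile scaling gave 2 higher and 4 lower under the HFD and 2 and 2 under the standard diet, and library totals 1 and 5 and 1 and 2.

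Of the 18 lipogenic targets of SREBP-1c, 10 rose with Fc(mML1)B3 under the standard diet and 1 fell, against 8.56% and 7.55% of all genes, with a median log2 fold change of 0.37 against -0.01 over all genes. Thrsp, a regulator of lipogenesis, rose from 238 ± 68.7 (SD, n = 9) to 877 ± 339 CPM (SD, n = 7), with a log2 difference of 1.88 (adjusted p = 2.59e-05). Elovl6, the elongase that makes stearate, rose from 195 ± 32 to 416 ± 119 CPM, or by 1.09 on the log2 scale (adjusted p = 2.72e-05), and Tmem97, a sterol-regulated membrane protein, by 0.41 (standard error 0.06, adjusted p = 5.52e-05). Elovl5, an elongase of polyunsaturated fatty acids, was the one that fell, by 0.47 (adjusted p = 0.00161). With the libraries numbered above 100 alone, 5 rose and 1 fell, and without any 1 mouse 9 to 13 rose. Under the HFD none of the 18 was called by edgeR (by unadjusted p below 0.05, 1 was higher and 3 were lower) or DESeq2, the median was -0.21, and 15 of 18 estimates were below 0. Limma-voom called 1 higher and library totals without TMM 3 lower. The effect differed between the diets for 5 of the 18, all higher under the standard diet, where 4.66% of 14105 genes were called in that direction and 4.4% in the other.

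**Figure D4:**
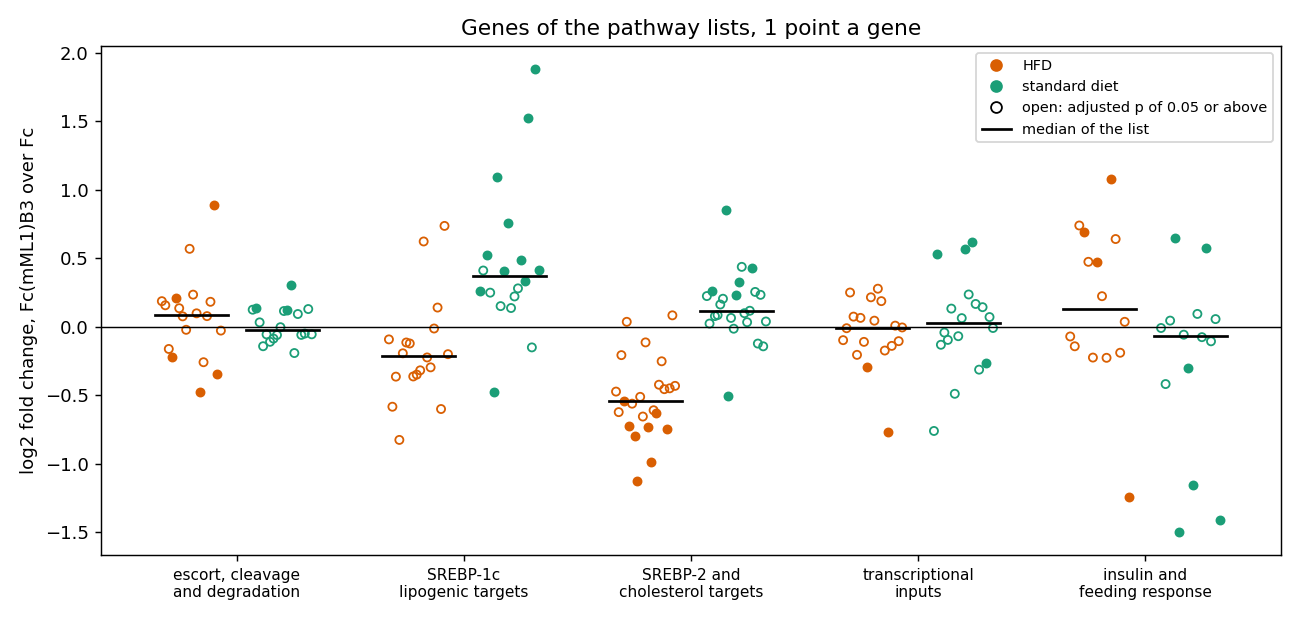
Log2 fold change of Fc(mML1)B3 over Fc for each gene of 5 pathway lists, with HFD and standard diet side by side, filled points for genes at an adjusted p below 0.05 and lines at the median. The SREBP-1c targets lie around 0.37 under the standard diet and -0.21 under the HFD, and the SREBP-2 targets around 0.12 and -0.54.

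Some of the targets of SREBP-2 and genes of cholesterol synthesis or uptake were lower with Fc(mML1)B3 than with Fc under the HFD. Of 23 genes tested (of 24 listed), 8 fell by edgeR, against 6.68% of all genes, with a median of -0.54 against -0.01. None rose by edgeR, DESeq2 or limma-voom, and by unadjusted p below 0.05 none was higher and 17 were lower. Msmo1, a sterol methyl oxidase, fell from 360 ± 149 to 180 ± 23.9 CPM (SD, n = 10 each), -0.99 on the log2 scale (adjusted p = 0.0033). Sc5d, a desaturase near the end of the pathway, fell by 0.75 (standard error 0.15, adjusted p = 0.00146) and Fdft1, squalene synthase, by 0.72 (standard error 0.19, adjusted p = 0.0114). The Fc mice varied more than the Fc(mML1)B3 mice for each of these. This count depended on which mice were included. It was 0 with series b alone, 4 with series c alone and 4 with limma-voom, and it was 15 without Fc mouse 7 and 16 without Fc mouse 8.

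Under the standard diet, 5 of the 23 rose and 1 fell, against 8.56% and 7.55% of all genes, with a median of 0.12. Hmgcs1, the cytosolic HMG-CoA synthase, fell by 0.51 (standard error 0.17, adjusted p = 0.0459). Without 1 mouse, the genes that rose numbered 2 to 9 and those that fell 0 to 1, and 13 of 16 such fits moved the first count by over 1.5 times. With the libraries numbered above 100, 2 rose and none fell. For 8 of 23 the 2 diets' effects were called different, all higher under the standard diet, by 1.44 on the log2 scale for Msmo1 (adjusted p = 8.27e-04). Of the 14105 genes tested, 4.66% were called in that direction and 4.4% in the other. Limma-voom called 5 of the 23. Between the Fc groups, 18 of 23 were lower and 1 higher under the standard diet, with a median of -0.84 against -0.05 over all genes, of which 24.6% were lower and 23.3% higher.

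Of 18 transcriptional inputs to Srebf1 and the Insig genes, none rose (3 were higher with an unadjusted p below 0.05) and 2 fell under the HFD, where 8.14% and 6.68% of all genes did, and 3 rose and 1 fell under the standard diet, where 8.56% and 7.55% did. Counts this small are near those shares. Nr1h3 (LXRα) had log2 fold changes of 0.22 (standard error 0.08, adjusted p = 0.0748) and 0.06 (standard error 0.05). Mlxipl (ChREBP, the glucose-responsive lipogenic factor) had 0.25 (standard error 0.11) and -0.13 (standard error 0.05) and was not called in either diet, except with library totals under the standard diet (-0.17, adjusted p = 0.0229), but was higher by 0.77 under the standard diet than the HFD in the Fc groups (adjusted p = 1.44e-08). The 2 that fell under the HFD were Nr1h2, LXRβ (-0.29), and Ppargc1b, a coactivator of the SREBPs (-0.77), and neither was called with series b alone. With the standard diet, Nr1h4, the bile acid receptor FXR, rose by 0.57 (standard error 0.06, adjusted p = 1.21e-06), Nr1i3, the receptor CAR, by 0.62 (standard error 0.09, adjusted p = 5.22e-05) and Foxo1, the factor that insulin signalling restrains, by 0.53 (standard error 0.07, adjusted p = 3.02e-05). Sp1 fell by 0.26 (adjusted p = 4.97e-04).

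Of 14 genes of the response to insulin and feeding, 3 rose and 1 fell under the HFD (8.14% and 6.68% of all genes), and 2 rose and 4 fell under the standard diet (8.56% and 7.55% of all genes), of which the counts of 1 and 2 are near those shares. Trib3, a pseudokinase that binds Akt, fell in both, by 1.24 (standard error 0.25, adjusted p = 0.00129) and 1.41 (standard error 0.14, adjusted p = 1.23e-06). Pdk4, which limits pyruvate oxidation, rose by 1.08 (adjusted p = 0.0137) under the HFD, and its estimate was 0.23 with series b alone (adjusted p = 0.638), where that of Trib3 was -1.04 (adjusted p = 0.0888). Irs1, an insulin receptor substrate, rose by 0.47 (adjusted p = 0.0107) under the HFD but was not called with series b alone (0.32, adjusted p = 0.181). Under the standard diet Irs1 fell by 0.30 (adjusted p = 0.0209), a fall not called with a replicate block (adjusted p = 0.0626). Pklr, the liver pyruvate kinase, rose by 0.58 (adjusted p = 4.17e-04) under the standard diet. In the standard diet mice, Igfbp1 and Irs2, both lowered by insulin, fell by 1.5 (adjusted p = 0.00361) and 1.16 (adjusted p = 0.00505), and with the libraries numbered above 100 alone the estimates were -1.25 and -1.12 (adjusted p = 0.0549 and 0.0550).

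Of the clock genes, 6 of 18 tested rose and 8 fell under the HFD (8.14% and 6.68% of all genes), and 8 of 19 rose and 5 fell under the standard diet (8.56% and 7.55%). Nr1d1 (REV-ERBα, a repressor of the clock loop) fell in both diets, from 83.4 ± 42.7 to 10.4 ± 5.71 CPM under the HFD (SD, n = 10 each), which is -2.97 on the log2 scale (adjusted p = 9.67e-07), and from 129 ± 17.0 (SD, n = 9) to 40.4 ± 13.3 CPM (SD, n = 7) under the standard diet (-1.68, standard error 0.15, adjusted p = 3.60e-07). Arntl (BMAL1, the activator of the core loop) rose from 1.20 ± 0.506 to 18.6 ± 8.15 CPM under the HFD, by 3.98 on the log2 scale (adjusted p = 1.08e-08), and fell from 3.96 ± 1.32 to 1.91 ± 1.00 CPM under the standard diet (-1.05, standard error 0.27, adjusted p = 0.0108). The fall of Arntl was not called with the libraries numbered above 100 alone (-0.76, adjusted p = 0.171). Under the HFD, Nfil3 (1.87) and Cry1 (2.22), both repressors, also rose and Dbp (-3.31) and Nr1d2 (-1.51) fell. On the standard diet, Per2 (1.18) and Cry1 (1.16) rose and Clock (-0.69) and Npas2 (-2.12), the partners of BMAL1, fell. From mouse to mouse within a group, Insig2 followed Arntl with r = 0.91 in the 10 Fc(mML1)B3 mice of the HFD and 0.87 in the 9 Fc mice of the standard diet, but with 0.14 in the HFD Fc mice and 0.0066 in the standard diet Fc(mML1)B3 mice, given as a description. With Nr1d1, r was -0.79, 0.35, 0.31 and -0.05 in the same order. The first 2 of these groups each mix 2 series of running numbers, between which both Arntl and Insig2 differed. Under the HFD, Arntl averaged 11.8 CPM in series b and 23.2 in series c, and Insig2 138 and 260 CPM. In the standard diet Fc mice, Arntl averaged 4.55 CPM with low numbers and 3.22 with numbers above 100, and Insig2 176 and 157 CPM. The part of series in these r was not tested. The hour at which livers were taken is not given in the sources used here, and its part in these levels was not tested.

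Markers of other liver cells moved with the groups in a few cases. Under the HFD, 3 of 4 neutrophil markers tested (S100a8, S100a9 and Csf3r, not Retnlg) and 1 of 5 lymphocyte markers fell, as did 6.68% of all genes. The summed neutrophil markers ranged from 13.3 to 64.5 CPM with Fc and from 11.2 to 20.3 CPM with Fc(mML1)B3, and the lymphocyte markers from 6.10 to 18.2 and from 4.83 to 14.2 CPM. Under the standard diet, 2 of 6 stellate cell markers and 1 of 5 cholangiocyte markers fell (7.55% of all genes), with sums of 422 to 651 against 356 to 494 CPM and of 228 to 498 against 178 to 411 CPM. Of 6 hepatocyte markers 1 rose in each diet (8.14% and 8.56% of all genes), and no macrophage or endothelial marker was called between the proteins. Between the Fc groups, 5 of 6 stellate cell, 5 of 5 lymphocyte, 2 of 5 cholangiocyte, 2 of 4 neutrophil and 1 of 5 macrophage markers (Cd68) were lower under the standard diet and 2 of 6 hepatocyte markers were higher, where 24.6% of all genes were lower and 23.3% higher. The macrophage and hepatocyte counts are near those shares. The sums there ranged under the HFD and the standard diet from 555 to 1064 and from 422 to 651 CPM for stellate cells, and from 6.10 to 18.2 and from 5.03 to 8.16 CPM for lymphocytes. Of the adipocyte list, Lep was at 0 in every mouse, and of 2 markers tested Pparg fell under the HFD. In bulk liver, fewer cells of a type and less RNA per cell cannot be told apart, and the part of these cells in the values above was not tested.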

How the data were processed

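Liver RNA of 36 mice was sequenced with a strand-keeping library kit, 1 library a mouse. The authors trimmed reads with fastp, removed ribosomal reads with Bowtie2 2.4.5, aligned the rest to mm10 with STAR 2.7.10a and counted them per gene with featureCounts of Subread 2.0.3, and deposited raw counts. Both ends of a pair were counted, strand was ignored, and reads matching several places or genes were left out. No normalized values were used.

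Groups came from the sample titles. Counts were normalized by TMM, filtered with filterByExpr, and tested with edgeR 4.0.16 (R 4.3.3), by the quasi-likelihood test with Benjamini-Hochberg adjustment over all genes tested, at an adjusted p below 0.05. The study's own test was DESeq2 within each diet, which was run as an alternative (DESeq2 1.42.0), as was limma-voom (limma 3.58.1). The comparisons within a diet used that diet's libraries, and the diet difference used all 36. Log2 CPM used a prior count of 2. Each library was a separate mouse, so p-values reflect the spread between mice. The code was tested on simulated data.

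The members, the gene lists and the rule for naming genes were chosen with earlier results of these data known, so the members received no test. Named genes were the members, 8 fixed genes (Scap, Mbtps1, Mbtps2, Srebf2, Nr1h3, Mlxipl, Nr1d1 and Arntl), per list, diet and direction up to 3 called genes of lowest p, and the 5 highest and 3 lowest correlations per member. Other settings were upper-quartile scaling, no filter, the study's limits, subsets by running number, leaving out each mouse, a replicate block, and library totals without TMM, the last chosen after seeing the data. A few genes that this rule names are not reported here.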

Additional observations from a re-analysis of the deposited data

Results flagged for a closer look

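In 44 groups of mice, 11 genes in each of the 4 treatment groups, a mouse stood apart from the rest of its group in 2 cases, by a gap test that flags about 1 group in 20 by chance. The lowest Fc(mML1)B3 mouse of the HFD experiment had 6.36 CPM of Mbtps2, and the lowest Fc(mML1)B3 mouse of the standard diet had 37.6 CPM of Srebf2.

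Insig2 differed from the Fc median in opposite directions in the 2 diets in every Fc(mML1)B3 mouse, by -2.49 on the log2 scale between the effects. This difference was not tested, since the gene was chosen for it.

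For 25 of 47 named genes tested, the effects of the protein in the 2 diets were called different (edgeR's quasi-likelihood interaction test, adjusted p below 0.05), and diet cannot be told apart from experiment, length and dosing. Over all genes the share was 9.06%, but most of the named genes were picked for a low p in 1 of the 2 diets, so the 25 are a description and not to be read against it. Of these, 22 are given here. As log2 differences of the standard diet effect minus the HFD effect, it was higher for Dbp (3.46), Nr1d2 (1.51), Msmo1 (1.44), Nr1d1 (1.30), Elovl6 (1.22), Fdft1 (0.90), Rnf145 (0.80), Per2 (0.78), Sc5d (0.64), Tmem97 (0.63), Foxo1 (0.56), Nr1h4 (0.54) and Usp20 (0.50). It was lower for Arntl (-5.02), Npas2 (-4.47), Nfil3 (-2.15), Igfbp1 (-1.96), Clock (-1.69), Cry1 (-1.05), Ube2g2 (-0.92), Irs1 (-0.75) and Faf2 (-0.25). Among these, Elovl6 (adjusted p = 0.101), Fdft1 (0.0596) and Sc5d (0.0582) were not called with limma-voom, Usp20 not without the filter (0.0576) or with library totals (0.0565), and Faf2 not with library totals (0.0887).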

How the results depend on the processing

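The log2 fold change of Insig2 under the HFD was 0.82 with series b alone, and its range without 1 mouse was 1.31 to 1.54; under the standard diet that range was -1.13 to -1.06. Without 1 mouse, Insig1 ranged from -0.19 to -0.04 and from 0.06 to 0.23, and Srebf1 from -0.36 to -0.20 and from 0.37 to 0.48. Of the pathway list genes, 11 were called higher and 22 lower under the HFD, with 11 to 16 and 19 to 31 without 1 mouse, 6 and 7 with the study's limits, and 8 lower with series b alone. Under the standard diet 31 were higher and 12 lower, with 25 to 37 and 11 to 13 without 1 mouse, 13 higher with the study's limits and 19 higher with the libraries numbered above 100. The other planned settings kept these counts within 1.5 times, and of the estimates of the 3 genes only those of Insig1 changed sign, under the HFD (0.07 with series c alone) and between the Fc groups (0.05 with limma-voom). The causes were not tested, except that the study's limits add a fold and subsets hold fewer mice.

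Scaling moved the balance of calls. Under the HFD 1083 genes were higher and 889 lower with TMM, 865 and 1075 with upper-quartile scaling, and 472 and 1256 with library totals, where the median log2 change was -0.10. Under the standard diet 1162 and 1024 became 777 and 1292 with library totals. Between the Fc groups 3288 and 3471 became 2523 and 4795 with upper-quartile scaling and 2322 and 4470 with library totals, with medians of -0.13 in both.

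Same-numbered mice did not deviate together (r from -0.62 to 0.26 over 10 pairs under the HFD and from -0.16 to 0.00093 over 7 under the standard diet), and 1 and 0 mice correlated best with their own number. With a replicate block, calls over all genes were 731 higher and 563 lower under the HFD and 713 and 583 under the standard diet, pathway calls 12 and 16, and 26 and 8, and the Insig2 estimates 1.37 and -1.04.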
